A study of Mus musculus with 12 samples.

Results

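Type I interferon-stimulated genes are the genes that a cell turns on after a type I interferon binds its receptor, and 42 of them were followed in bone marrow-derived macrophages (BMDMs). The members were listed by gene symbol, and all 42 were found among the 48526 genes of the count table. The cells were grown for 7 days from the bone marrow of 3 female C57Bl/6J mice with the macrophage growth factor m-CSF, and the labels name no altered allele. From each mouse came an untreated culture and cultures given 100 pg/mL IL-4, 100 ng/mL Wnt3a or both for 16 hr, which gave 12 samples of total RNA in 4 groups of 3, read as single reads. The labels number the mice and give no other batch, and m-CSF was present in all groups while the marrow was cultured.

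Both columns that contain Wnt3a share reads, so they were not used as they stand. In every one of the 48526 genes, the Wnt3a count of a mouse lay between 1 and 2 times the Wnt3a+IL4 count of the same mouse, whereas 6681 to 8625 genes fell outside these bounds when columns of different mice were set against each other. For each mouse the counts were therefore solved into a pair of parts. The Wnt3a column minus the Wnt3a+IL4 column is called the difference, and 2 times the Wnt3a+IL4 column minus the Wnt3a column is called the remainder. Neither part was assigned to a culture, because the labels do not say which is which, and every statement on Wnt3a below is a statement on one of these parts. Total counts were 13342492 to 17113982 in the untreated and IL-4 libraries and 14171994 to 17453377 in the parts.

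Type I interferons bind the receptor chains IFNAR1 and IFNAR2 and activate the kinases JAK1 and TYK2. A complex that holds STAT2 and IRF9 then forms, binds the interferon-stimulated response element in promoters and turns on genes that sense foreign nucleic acid, block virus entry and replication, or tag proteins with ISG15. Macrophages make interferon-stimulated genes at a basal level without infection, and several of the products, among them the RNA sensors and IRF7, feed back into interferon production.

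The motif that this complex reads can be seen in the promoters of the members. RefSeq promoter windows on GRCm38.p6, from 250 bases before to 50 bases after the transcription start, were given for 31 of the 42 members. The letters GAAA, any 2 bases and GAAA again, or TTTC, any 2 bases and TTTC where the motif lies on the other strand, were found in the windows of 12 of these 31 genes (38.7%) and in those of 1079 of all 27025 genes (3.99%). Below are the 140 bases before the start of 5 members, with every match of the motif in capitals. Isg15, Ifit1, Oas3 and Bst2 are shown because they rose in both parts, and Rsad2 because it holds the motif and passed the test in neither.
Isg15 promoter, chr4:156200819-156200958, minus strand: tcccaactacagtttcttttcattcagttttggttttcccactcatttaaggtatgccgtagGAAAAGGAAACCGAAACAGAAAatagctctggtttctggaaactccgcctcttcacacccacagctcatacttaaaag
Ifit1 promoter, chr19:34640749-34640888, plus strand: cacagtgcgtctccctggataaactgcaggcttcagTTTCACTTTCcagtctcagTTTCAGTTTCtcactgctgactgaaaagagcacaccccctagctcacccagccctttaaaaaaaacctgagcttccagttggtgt
Oas3 promoter, chr5:120777660-120777799, minus strand: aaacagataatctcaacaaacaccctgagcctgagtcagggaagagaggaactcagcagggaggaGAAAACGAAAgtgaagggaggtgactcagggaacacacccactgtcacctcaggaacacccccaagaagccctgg
Bst2 promoter, chr8:71537473-71537612, minus strand: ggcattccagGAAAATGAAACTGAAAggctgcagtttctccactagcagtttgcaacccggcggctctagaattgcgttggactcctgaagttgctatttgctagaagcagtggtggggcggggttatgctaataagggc
Rsad2 promoter, chr12:26456453-26456592, minus strand: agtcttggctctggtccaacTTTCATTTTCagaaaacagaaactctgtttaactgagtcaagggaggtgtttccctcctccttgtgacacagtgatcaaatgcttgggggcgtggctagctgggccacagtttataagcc
Isg15 held 3 overlapping matches that began 78, 72 and 66 bases before the start. Ifit1 held 2 separate matches, at 104 and 85 bases, and Bst2 held 2 overlapping ones, at 130 and 124 bases. Oas3 held 1 match at 75 bases and Rsad2 1 at 120 bases. A match is a run of letters in this window and says nothing of binding in these cells.

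Most of the 42 members rose in both parts of the Wnt3a-containing columns, and none of them passed the test with IL-4. Counts were tested with edgeR's quasi-likelihood test at a Benjamini-Hochberg adjusted p under 0.05, over the 12421 genes that reached 10 counts in 3 or more libraries. All 42 members passed this filter, with 18 counts at the lowest, for Ifi44 in an untreated library. Against untreated cells, 37 members were called higher in the difference and 0 lower, where 11.8% of all genes tested were called higher and 23.2% were called in either direction. In the remainder 35 were called higher and 0 lower, against 13.6% of all genes called higher and 25.3% called. Of the members, 26 were called at least 2-fold higher in the difference, as 3.44% of all genes were, and in the remainder the number was 18, against 4.16%.

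The same untreated libraries enter both comparisons, so the pair of counts is not independent. The median log2 fold change over the members was 1.15 in the difference and 0.91 in the remainder, beside -0.01 and -0.02 over all genes tested. All 3 libraries of the difference lay above all 3 untreated libraries for 37 members, as they did for 19.5% of all genes, and those of the remainder did so for 36, as for 18.9% of all genes. Scaling by total counts alone, in place of TMM, moved the median of all genes to -0.10 for the difference and to -0.13 for the remainder, and changed the split of all calls from 1462 higher and 1422 lower to 1131 and 2238 in the difference and from 1687 and 1450 to 1293 and 2342 in the remainder. Under that scaling the members called higher numbered 36 for the difference and 31 for the remainder, with 0 lower. Leaving out mouse 3 lowered the calls over all genes from 2884 to 1220 in the difference and from 3137 to 1375 in the remainder. Losses of single calls without mouse 3, given below, stand beside that fall. In RNA from whole cultures, more cells that express a gene and more RNA of it per cell cannot be told apart.

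**Figure D1:**
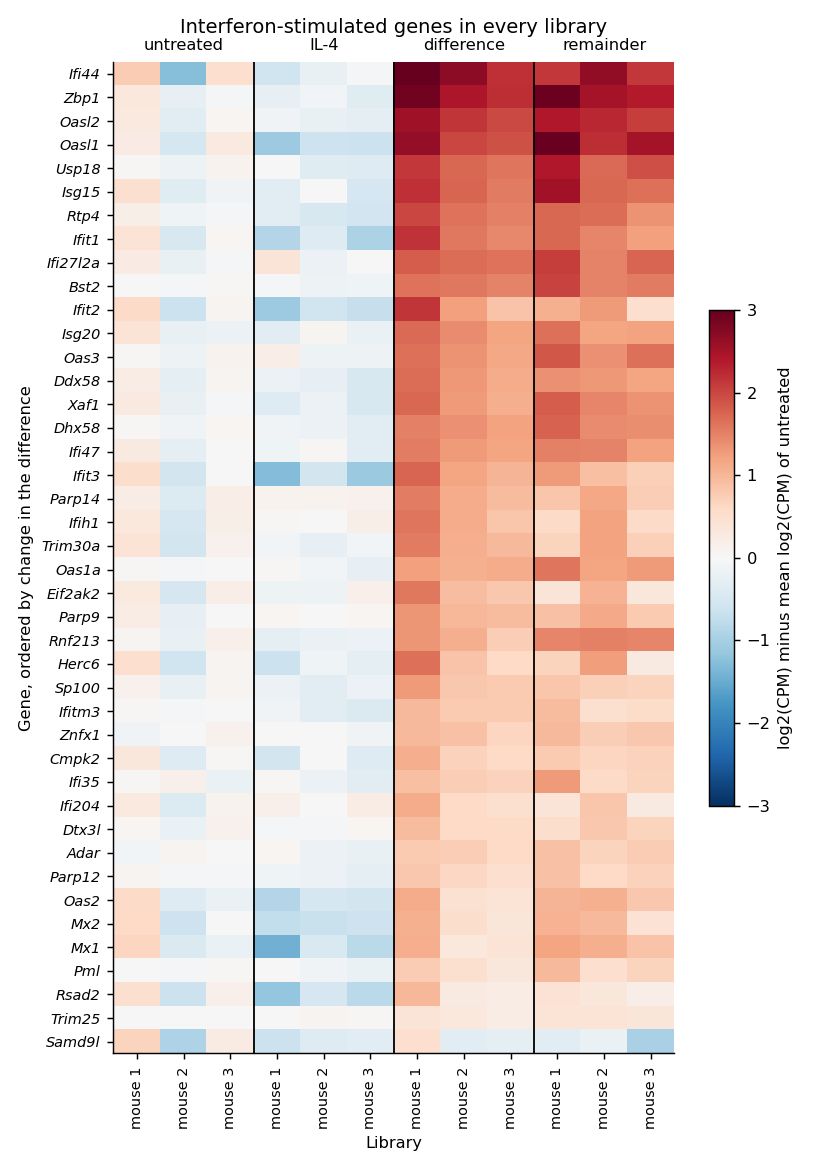
Heat map of the 42 members (rows, ordered by their change in the difference) in the 12 libraries (columns, by group and mouse), as log2(CPM), where CPM are counts scaled to library size, minus the mean of the 3 untreated libraries. The columns of the difference and the remainder are red in nearly every row above Samd9l, the untreated column of mouse 2 is blue for most rows, and Samd9l at the bottom is blue in all 3 remainder libraries.

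There were 33 members called higher in both parts, where 8.61% of all genes were. Ifit2, Eif2ak2, Ifi204 and Herc6 passed the test in the difference only, and Oas2 and Mx1 in the remainder only. None of these 6 passed the direct test between the parts. Mx2, Rsad2 and Samd9l passed in neither.

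**Figure D2:**
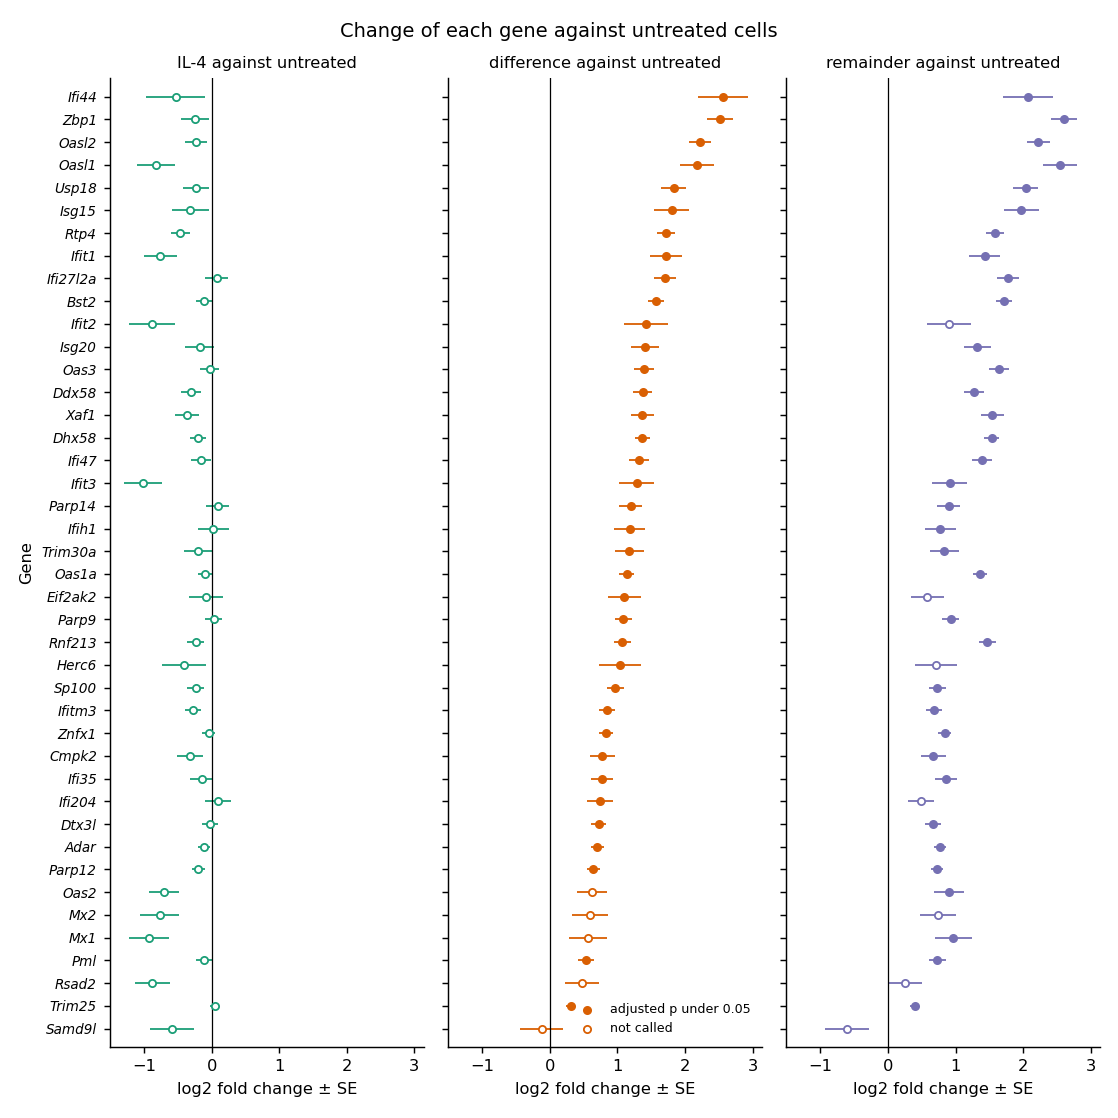
Log2 fold change against untreated cells with its standard error (x axis) for each of the 42 members (y axis, ordered by the difference), with filled points for an adjusted p under 0.05 and open points otherwise. In the IL-4 panel 0 points are filled, against 37 for the difference and 35 for the remainder, and Ifi44, Zbp1, Oasl2 and Oasl1 head both parts.

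The genes that bind double-stranded or triphosphate RNA rose in most cases, 8 of 9 in the difference and 7 of 9 in the remainder, with median log2 fold changes of 1.39 and 1.36. The largest changes were in the OAS-like genes, neighbours on chromosome 5 whose proteins resemble the enzymes that make the second messenger of RNase L. Oasl1 (ENSMUSG00000041827, chr5:114923240-114937915 on GRCm38, as all gene positions below) is known to limit the translation of IRF7. It measured 8.28, 4.89 and 8.59 CPM in the untreated cells of mice 1 to 3 and 3.30, 4.60 and 4.47 with IL-4. Oasl1 reached 43.6, 28.3 and 26.4 CPM in the difference and 54.5, 32.8 and 39.9 in the remainder. Every library of both parts was above every untreated library, with log2 fold changes of 2.17 ± 0.25 (SE, adjusted p = 2.2e-05) and 2.54 ± 0.25 (SE, adjusted p = 4.4e-06). Its neighbour Oasl2 (ENSMUSG00000029561, chr5:114896936-114912234), with 117, 75.7 and 101 CPM untreated and 88.9, 82.1 and 78.6 with IL-4, reached 560.0, 427 and 378 in the difference and 506, 463 and 403 in the remainder. For Oasl2 the log2 fold changes were 2.22 ± 0.16 (SE, adjusted p = 3.4e-07) and 2.22 ± 0.16 (SE, adjusted p = 2.5e-07), and the ranges of untreated cells and of both parts were far apart.

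Among the enzymes that make the messenger itself, Oas1a and Oas3 rose in both parts. Oas3 had log2 fold changes of 1.39 ± 0.15 (SE, adjusted p = 8.7e-06) in the difference and 1.64 ± 0.15 (SE, adjusted p = 1.7e-06) in the remainder. Oas1a changed by 1.14 ± 0.11 (SE, adjusted p = 3.9e-06) and 1.36 ± 0.11 (SE, adjusted p = 5.8e-07), but 57.6% of its 50-base stretches are also found in another gene, mostly Oas1g, so its counts are uncertain. Oas2 had 131, 67.4 and 76.6 CPM in untreated cells, with mouse 1 far above the others. It reached 189, 120.0 and 117 in the difference, a range that overlapped the untreated libraries, and 179, 183 and 155 in the remainder, which lay above them. The log2 fold change was 0.63 ± 0.22 (SE, adjusted p = 0.0577) in the difference, where the same fit with the mouse as a block gave 0.64 (adjusted p = 0.0415), and 0.91 ± 0.22 (SE, adjusted p = 0.00827) in the remainder. The call in the remainder was lost without mouse 3, at 0.86 (adjusted p = 0.117), or without the untreated library of mouse 3, at 0.78 (adjusted p = 0.0575), and a call in the difference came without the untreated library of mouse 1, at 0.98 (adjusted p = 0.00231).

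The IFIT genes, which lie together at chr19:34550694-34650009 and whose products bind RNA without the marks of host mRNA, rose in the difference. Ifit1 measured 30.7, 16.5 and 24.1 CPM untreated, 104, 69.1 and 62.5 in the difference and 75.5, 63.4 and 53.6 in the remainder. All libraries of both parts were above the untreated ones, with log2 fold changes of 1.72 ± 0.23 (SE, adjusted p = 9.6e-05) and 1.43 ± 0.23 (SE, adjusted p = 3.8e-04). Ifit3 changed by 1.28 ± 0.26 (SE, adjusted p = 0.00266) and 0.91 ± 0.26 (SE, adjusted p = 0.0199), and 51.2% of its 50-base stretches occur in another gene, mostly Ifit3b, which makes its counts uncertain. The Ifit3 call in the remainder was lost without mouse 3, at 1.01 (adjusted p = 0.128), or without the remainder library of mouse 1, at 0.75 (adjusted p = 0.0906). Ifit2 changed by 1.43 ± 0.32 (SE, adjusted p = 0.00539) in the difference. In the remainder it was at 0.90 ± 0.32 (SE, adjusted p = 0.0560), and the fit with the mouse as a block gave 0.92 (adjusted p = 0.0453). Eif2ak2, the kinase PKR that stops translation on double-stranded RNA, rose by 1.10 ± 0.24 (SE, adjusted p = 0.00465) in the difference and measured 0.58 ± 0.24 (SE, adjusted p = 0.0991) in the remainder.

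All 3 RIG-I-like receptors rose in both parts. These helicases detect viral RNA in the cytosol. Ddx58, which encodes RIG-I, changed by 1.37 ± 0.15 (SE, adjusted p = 1.1e-05) in the difference and by 1.27 ± 0.15 (SE, adjusted p = 1.8e-05) in the remainder. Dhx58, which encodes the regulator LGP2, measured 41.9, 37.7 and 42.6 CPM untreated, 117, 106 and 93.4 in the difference and 139, 108 and 107 in the remainder. Its log2 fold changes were 1.37 ± 0.11 (SE, adjusted p = 9.2e-07) and 1.53 ± 0.11 (SE, adjusted p = 2.6e-07). Ifih1, which encodes MDA5, changed by 1.18 ± 0.23 (SE, adjusted p = 0.00174) and 0.77 ± 0.23 (SE, adjusted p = 0.0232), and the call in the remainder was lost without mouse 2, at 0.33 (adjusted p = 0.219). That call was also lost with total counts alone, with only the groups compared in the fit, and without mouse 3.

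Zbp1 (ENSMUSG00000027514, chr2:173206612-173218923), the sensor of Z-form nucleic acid that can start necroptosis, had the highest log2 fold change of the members in the remainder and the second highest in the difference. It measured 27.5, 18.4 and 21.0 CPM in untreated cells and 18.6, 20.7 and 17.1 with IL-4. In the difference it reached 164, 118 and 102 and in the remainder 168, 123 and 115. Each library of the parts was thus several times above every untreated one, and the log2 fold changes were 2.51 ± 0.20 (SE, adjusted p = 5.4e-07) and 2.60 ± 0.20 (SE, adjusted p = 3.2e-07), or 5.71-fold and 6.06-fold. Adar (ENSMUSG00000027951, chr3:89715022-89753446), which edits adenosine to inosine in double-stranded RNA, moved far less, from 104, 118 and 111 CPM untreated to 190.2, 184 and 168 in the difference and 203, 176 and 188 in the remainder. The ranges did not overlap, and the log2 fold changes were 0.70 ± 0.09 (SE, adjusted p = 6.9e-05) and 0.77 ± 0.09 (SE, adjusted p = 2.5e-05). Of the Adar exon bases 16.8% are shared with Chrnb2 on the opposite strand, and no source used here says whether the counting used strand. Ifi204, a DNA sensor of the HIN-200 family, changed by 0.74 ± 0.19 (SE, adjusted p = 0.0130) in the difference and measured 0.48 ± 0.19 (SE, adjusted p = 0.0821) in the remainder, and 20.0% of its 50-base stretches occur in another gene, mostly Ifi211. Its call in the difference was lost without the difference library of mouse 1, at 0.50 (adjusted p = 0.0824), or without mouse 3, at 0.91 (adjusted p = 0.0555).

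Genes of the ISG15 system rose in all 4 cases in the difference and in 3 of 4 in the remainder. Isg15, the ubiquitin-like tag whose promoter is shown above, measured 23.0, 12.8 and 15.4 CPM untreated, 74.9, 55.1 and 48.6 in the difference and 94.6, 54.2 and 52.2 in the remainder. Both parts were above every untreated library, with log2 fold changes of 1.80 ± 0.26 (SE, adjusted p = 1.5e-04) and 1.97 ± 0.26 (SE, adjusted p = 5.7e-05). Usp18, the protease that removes the tag and dampens signaling at the interferon receptor, changed by 1.83 ± 0.18 (SE, adjusted p = 5.7e-06) and 2.04 ± 0.18 (SE, adjusted p = 1.8e-06). The ligase Herc6 rose by 1.04 ± 0.31 (SE, adjusted p = 0.0263) in the difference, a call lost without the difference library of mouse 1, at 0.64 (adjusted p = 0.164), and was at 0.71 ± 0.31 (SE, adjusted p = 0.114) in the remainder. The Herc6 call was also lost with total counts alone, without mouse 1 or 3, and without the untreated library of mouse 2 or 3.

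Trim25 (ENSMUSG00000000275, chr11:88999376-89020293), a ubiquitin ligase that activates RIG-I, showed the smallest change of any called member in both parts. It measured 365, 372 and 363 CPM untreated, 372, 387 and 376 with IL-4, 482, 454 and 425 in the difference and 489.7, 484 and 469.7 in the remainder. Replicates lay so close that the ranges of untreated cells and of both parts did not overlap at log2 fold changes of 0.31 ± 0.07 (SE, adjusted p = 0.00447) and 0.39 ± 0.07 (SE, adjusted p = 6.5e-04). In the difference the call was lost without mouse 2, at 0.32 (adjusted p = 0.0540), and without mouse 3, at 0.35 (adjusted p = 0.0648).

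**Figure D3:**
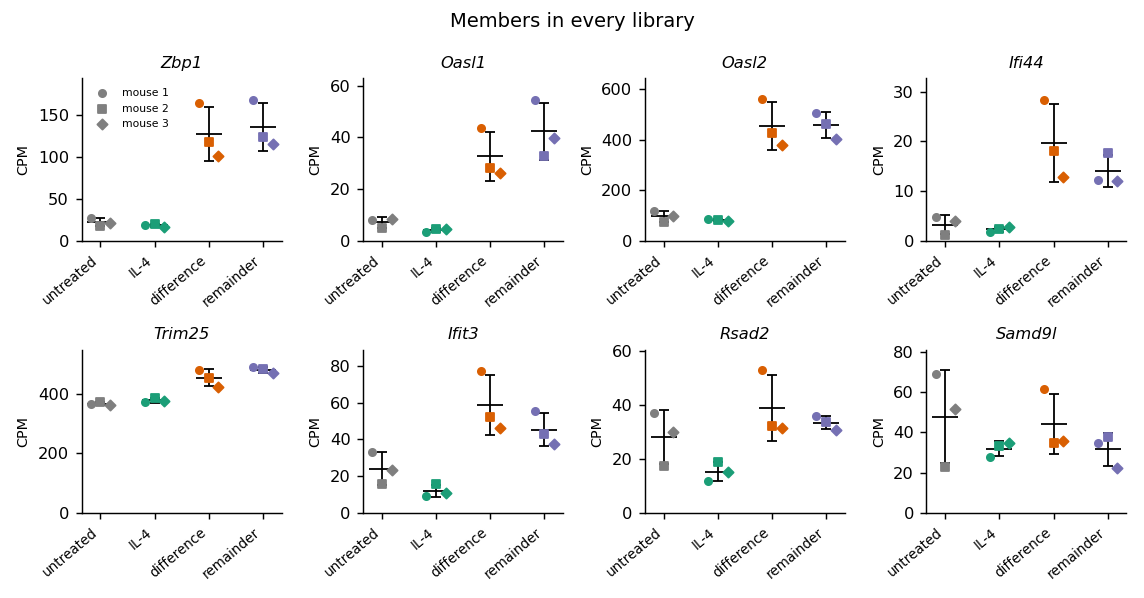
CPM (y axis, from 0) of 8 members in the untreated, IL-4, difference and remainder libraries, with 1 symbol per mouse and black bars for the mean ± SD of 3 mice. Zbp1, Oasl1, Oasl2 and Ifi44 are higher in every library of both parts than in any untreated library, Trim25 is so by a small margin, and the untreated and difference ranges of Rsad2 and Samd9l overlap.

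The interferon-induced GTPases were mixed. Ifi47, of the immunity-related GTPase family, changed by 1.32 ± 0.14 (SE, adjusted p = 1.3e-05) in the difference and 1.39 ± 0.14 (SE, adjusted p = 6.9e-06) in the remainder. Mx1 and Mx2, dynamin-like GTPases that trap viral particles and lie side by side at chr16:97447035-97560900, moved less and varied more between mice. Mx1 measured 25.4, 12.1 and 14.2 CPM untreated, 34.6, 20.4 and 21.8 in the difference and 37.3, 34.8 and 29.5 in the remainder. Only the remainder was clear of the untreated range, with a log2 fold change of 0.97 ± 0.28 (SE, adjusted p = 0.0192) against 0.57 ± 0.28 (SE, adjusted p = 0.162) in the difference. The first was lost without mouse 3, at 0.94 (adjusted p = 0.192), and the second was called without the untreated library of mouse 1, at 0.96 (adjusted p = 0.0207). C57BL/6 mice are known to carry an Mx1 allele without a functional protein. Mx2 was at 0.59 ± 0.26 (SE, adjusted p = 0.124) and 0.74 ± 0.26 (SE, adjusted p = 0.0537), and with the mouse as a block the value in the remainder was 0.77 (adjusted p = 0.0270).

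Of 9 genes of virus restriction, 7 rose in each part. Bst2, or tetherin, which holds budding virions at the cell surface, changed by 1.57 ± 0.12 (SE, adjusted p = 4.2e-07) in the difference and 1.71 ± 0.12 (SE, adjusted p = 1.5e-07) in the remainder. Ifitm3 (ENSMUSG00000025492, chr7:141009586-141010770), which blocks fusion of virions in endosomes, measured 616, 584 and 600.2 CPM untreated, 558, 479 and 446 with IL-4, 1174, 1037 and 1029 in the difference and 1168, 842 and 879 in the remainder. It did not overlap the untreated range in either part, at log2 fold changes of 0.85 ± 0.12 (SE, adjusted p = 1.5e-04) and 0.68 ± 0.12 (SE, adjusted p = 7.4e-04). The RNA exonuclease Isg20 changed by 1.41 ± 0.20 and 1.32 ± 0.20, Znfx1 by 0.83 ± 0.10 and 0.84 ± 0.10, and Trim30a by 1.17 ± 0.21 and 0.83 ± 0.21, all with an adjusted p under 0.05. The Trim30a call in the remainder was lost without mouse 2, at 0.43 (adjusted p = 0.0595), or mouse 3, at 0.94 (adjusted p = 0.0835). Rnf213, a giant ubiquitin ligase, rose by 1.07 ± 0.13 (SE, adjusted p = 2.8e-05) and 1.47 ± 0.13 (SE, adjusted p = 1.3e-06).

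Rsad2 and Cmpk2 lie next to each other at chr12:26442746-26479837, and only the second was called. Rsad2 encodes viperin, which makes a nucleotide that ends viral RNA chains. It measured 36.9, 17.1 and 29.7 CPM untreated, 52.7, 32.2 and 31.2 in the difference and 35.6, 33.6 and 30.7 in the remainder. The ranges overlapped in both parts, with log2 fold changes of 0.47 ± 0.25 (SE, adjusted p = 0.199) and 0.25 ± 0.25 (SE, adjusted p = 0.50). Cmpk2 (ENSMUSG00000020638, chr12:26469204-26479837), a mitochondrial nucleotide kinase, measured 29.9, 18.0 and 24.1 CPM untreated, 16.1, 23.8 and 18.1 with IL-4, 50.4, 37.8 and 35.3 in the difference and 40.4, 36.6 and 37.7 in the remainder. Both parts were above the untreated range, at 0.78 ± 0.18 (SE, adjusted p = 0.00703) and 0.67 ± 0.18 (SE, adjusted p = 0.0154). Without mouse 3 neither value passed the test, at 0.88 (adjusted p = 0.0801) in the difference and 0.69 (adjusted p = 0.162) in the remainder.

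Samd9l was the one member below untreated cells in both parts, without a call in either. This gene restrains translation and cell growth. It measured 69.0, 22.9 and 51.6 CPM untreated, 27.7, 33.0 and 34.9 with IL-4, 61.3, 34.8 and 35.9 in the difference and 34.7, 37.9 and 22.0 in the remainder. The untreated libraries alone spanned a 3-fold range that covered most of the others. The log2 fold changes were -0.12 ± 0.32 (SE, adjusted p = 0.827) and -0.60 ± 0.32 (SE, adjusted p = 0.192). Without mouse 2 the value in the remainder was called lower, at -1.08 (adjusted p = 0.00626), and so it was without the untreated library of mouse 2 alone, at -0.93 (adjusted p = 0.0121).

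The ADP-ribosylation genes Parp9, Parp12 and Parp14 and the ligase Dtx3l, the partner of PARP9, rose in both parts, 4 of 4. Parp14 changed by 1.20 ± 0.17 (SE, adjusted p = 1.5e-04) in the difference and 0.90 ± 0.17 (SE, adjusted p = 0.00133) in the remainder, and Parp9 by 1.09 ± 0.13 (SE, adjusted p = 2.8e-05) and 0.92 ± 0.13 (SE, adjusted p = 1.0e-04). Dtx3l (ENSMUSG00000049502, chr16:35926511-35939151) measured 91.9, 76.3 and 96.6 CPM untreated, 84.0, 84.3 and 91.6 with IL-4, 171, 133 and 132 in the difference and 126, 154 and 139 in the remainder. It cleared the untreated range in each part, at 0.72 ± 0.11 (SE, adjusted p = 3.9e-04) and 0.66 ± 0.11 (SE, adjusted p = 6.5e-04). Parp9 and Dtx3l overlap at their first exons, with 7.71% and 8.09% of their 50-base stretches in common with another gene. Parp12 (ENSMUSG00000038507, chr6:39086410-39118349) measured 94.1, 86.6 and 86.7 CPM untreated, 82.1, 78.3 and 73.2 with IL-4, 155, 137 and 126 in the difference and 163, 134 and 145 in the remainder. Each part was above the untreated range by a modest step, at 0.65 ± 0.09 (SE, adjusted p = 1.7e-04) and 0.72 ± 0.09 (SE, adjusted p = 5.0e-05).

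Genes of nuclear bodies and cell death rose in 4 of 4 cases in each part. Pml (ENSMUSG00000036986, chr9:58218076-58249786), which builds PML nuclear bodies, measured 58.8, 56.7 and 59.5 CPM untreated, 57.7, 54.0 and 50.9 with IL-4, 98.4, 81.6 and 74.4 in the difference and 115, 83.3 and 92.0 in the remainder. The parts did not overlap the tight untreated range, at log2 fold changes of 0.54 ± 0.12 (SE, adjusted p = 0.00467) and 0.73 ± 0.12 (SE, adjusted p = 4.2e-04). Its partner Sp100 changed by 0.97 ± 0.12 (SE, adjusted p = 6.2e-05) and 0.73 ± 0.12 (SE, adjusted p = 5.7e-04). Xaf1, an antagonist of the apoptosis inhibitor XIAP, changed by 1.37 ± 0.17 (SE, adjusted p = 5.0e-05) and 1.54 ± 0.17 (SE, adjusted p = 1.4e-05), and Ifi27l2a, a small hydrophobic protein, by 1.70 ± 0.17 (SE, adjusted p = 4.6e-06) and 1.77 ± 0.17 (SE, adjusted p = 2.7e-06).

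The 3 remaining members rose in both parts. Ifi44 (ENSMUSG00000028037, chr3:151730922-151749960) had the highest log2 fold change of any member in the difference, from the lowest untreated level per length. It measured 4.78, 1.16 and 4.01 CPM untreated and 1.86, 2.43 and 2.74 with IL-4. The difference held 28.3, 18.1 and 12.9 and the remainder 12.3, 17.8 and 12.2. The untreated library of mouse 2 was the low point, and all libraries of the parts were above all untreated ones, at 2.56 ± 0.37 (SE, adjusted p = 1.7e-04) and 2.06 ± 0.37 (SE, adjusted p = 8.7e-04). Rtp4, a chaperone of membrane receptors, changed by 1.72 ± 0.14 (SE, adjusted p = 6.4e-07) and 1.58 ± 0.14 (SE, adjusted p = 1.1e-06), and Ifi35 by 0.78 ± 0.16 (SE, adjusted p = 0.00322) and 0.86 ± 0.16 (SE, adjusted p = 0.00129). Of the 50-base stretches of Rtp4 11.6% are found in another gene, and of Ifi35 10.4%. Without mouse 3 the Ifi35 call in the difference was lost, at 0.72 (adjusted p = 0.0659).

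IL-4 alone at 100 pg/mL changed 0 of the 42 members by edgeR at the adjusted threshold, where 3.40% of all genes tested were called and 1.09% were called lower. At an unadjusted p under 0.05, 10 members were lower and 0 higher, against 6.74% and 7.67% of all genes, and DESeq2 called 4 members lower and 0 higher, with 1.58% of all genes called lower and 4.50% called. The log2 fold change was below 0 for 36 members, as for 50.7% of all genes, and the median over the members was -0.23, beside -0.0030 over all genes. All 3 IL-4 libraries lay below all 3 untreated libraries for 8 members, as for 9.02% of all genes.

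The genes with the lowest values with IL-4 are named here after their values were seen. Ifit3 measured 33.2, 15.6 and 23.3 CPM untreated and 9.29, 15.7 and 10.7 with IL-4. The IL-4 libraries of mice 1 and 3 were below all untreated ones, while that of mouse 2 was at the level of its own untreated culture, and the log2 fold change was -1.02 ± 0.28 (SE, adjusted p = 0.0666). Rsad2, at 36.9, 17.1 and 29.7 CPM untreated and 11.9, 18.7 and 15.2 with IL-4, was at -0.88 ± 0.26 (SE, adjusted p = 0.0971). In mouse 2 it was not lower with IL-4. Mx1 was at -0.93 ± 0.30 (SE, adjusted p = 0.126), Ifit2 at -0.88 ± 0.34 (SE, adjusted p = 0.230), Oasl1 at -0.82 ± 0.28 (SE, adjusted p = 0.164), Mx2 at -0.77 ± 0.29 (SE, adjusted p = 0.204) and Ifit1 at -0.76 ± 0.24 (SE, adjusted p = 0.133).

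Untreated cells of mouse 2 carried the lowest level of most of these genes, and the calls with IL-4 changed with that library. Without the untreated library of mouse 2, 5 members were called lower, namely Ifit1 at -0.98 (adjusted p = 0.0362), Ifit3 at -1.26 (adjusted p = 0.0152), Mx2 at -1.03 (adjusted p = 0.0468), Oas2 at -0.90 (adjusted p = 0.0493) and Rsad2 at -1.14 (adjusted p = 0.0109), where 0.875% of all genes were called lower. Without the untreated library of mouse 1, which carried the highest level of most members, the values moved the other way, with a member median of -0.12 and 0 calls by edgeR, Ifit3 at -0.71 (adjusted p = 0.283), Mx1 at -0.53 (adjusted p = 0.465) and Oas2 at -0.35 (adjusted p = 0.488). Over all samples left out, the value closest to 0 was -0.55 for Ifit3, -0.30 for Mx1 and -0.24 for Oas2. Without all samples of mouse 2 the calls were 4, Ifit1, Ifit3, Mx1 and Rsad2, where 0.821% of all genes were called lower. The difference library of mouse 1 is in neither group compared but enters the filter, the scaling and the estimate of the spread. Without that library, Ifit3 and Rtp4 were called lower, where 1.26% of all genes were. Without mouse 1, Ifitm3 was called lower, at -0.35 (adjusted p = 0.0495), where 0.786% of all genes were. Rtp4 measured 51.0, 41.4 and 43.0 CPM untreated and 35.7, 32.4 and 30.0 with IL-4, so the ranges did not overlap. Its log2 fold change was -0.46 ± 0.14 (SE, adjusted p = 0.101), and with the mouse as a block it was called at -0.46 (adjusted p = 0.0145).

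The remainder and the difference, compared directly, differed in 0 of the 42 members by edgeR, where 5.25% of all genes were called. At an unadjusted p under 0.05 the members numbered 2, against 19.0% of all genes, and DESeq2 called 1, where it called 7.17% of all genes. The log2 fold change of the remainder against the difference ran from -0.53 for Ifit2 to 0.40 for Mx1, with a median of 0.01 over the members and 0.01 over all genes. Rnf213 measured 1164, 990.4 and 777 CPM in the difference and 1275, 1310.1 and 1277 in the remainder, against 487, 398 and 511 in untreated cells. The remainder was above the difference in every library, by 0.40 ± 0.13 (SE, adjusted p = 0.0901), and DESeq2 called it at 0.39 (adjusted p = 0.0418). Without the difference library of mouse 1 edgeR called it as well, at 0.55 (adjusted p = 0.0309).

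Eif2ak2 lay the other way, with 81.0, 51.3 and 47.6 CPM in the difference and 35.4, 56.4 and 34.2 in the remainder. These ranges overlapped, at -0.52 ± 0.24 (SE, adjusted p = 0.260). The order of the mice differed between the parts for this gene, highest in mouse 1 in the difference and in mouse 2 in the remainder. Without mouse 2, Eif2ak2 was called lower in the remainder at -0.88 (adjusted p = 0.0141), Ifih1 at -0.69 (adjusted p = 0.0379) and Trim30a at -0.59 (adjusted p = 0.0334). In that fit 6.72% of all genes were called lower and 9.75% in either direction, so 3 calls among 42 members are near the share of all genes. Without mouse 1, Oas2 was called higher at 0.51 (adjusted p = 0.0187), where 3.13% of all genes were called in either direction.

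The members moved together from mouse to mouse in untreated cells and in the difference, less so in the remainder, and with no common order with IL-4. In untreated cells the median deviation of the members from their own mean over the 3 mice, in log2(CPM + 0.5), was 0.26 in mouse 1, -0.26 in mouse 2 and 0.05 in mouse 3, where the median over all genes tested stayed between -0.01 and 0.03. Mouse 2 was the lowest for 38 of the 42 members, and 30 held the order mouse 1, mouse 3, mouse 2 from highest to lowest. In its untreated library 3 members were above their own mean, against 55.6% of all genes. The share of all genes in each order of mice, or highest or lowest in a given mouse, was not computed for any group. In the difference the deviations were 0.31, -0.09 and -0.24, all 42 members were highest in mouse 1, and 39 held the order mouse 1, mouse 2, mouse 3. In that library of mouse 1 all 42 were above their own mean, against 50.5% of all genes. In the remainder 29 were highest in mouse 1 and 13 in mouse 2, and 0 in mouse 3. With IL-4 the deviations were smaller, from -0.06 to 0.02, and 16, 15 and 11 members were highest in mice 1, 2 and 3. The most common order with IL-4 held 12 members. The total counts of the difference fell in the same order of mice, at 17453377, 16849294 and 14171994, and their part in this pattern was not tested. Members of a library are not independent replicates, so these counts describe 12 libraries.

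**Figure D4:**
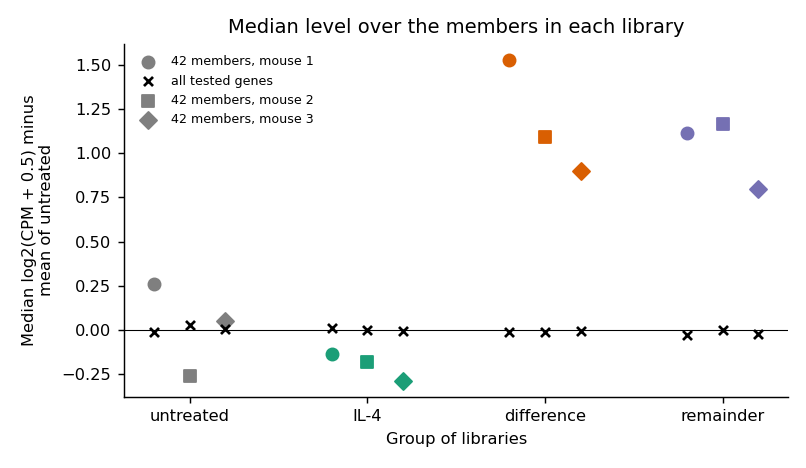
Median over the 42 members (colored symbols, 1 per mouse) and over all genes tested (crosses) of log2(CPM + 0.5) minus the mean of the untreated libraries (y axis), in each library of the 4 groups (x axis). The members sit between 0.80 and 1.53 in the libraries of both parts and between -0.29 and -0.13 with IL-4, and all crosses lie near 0.

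Set per length of the gene (RPKM, on merged exons of the gene annotation), the members covered a wide range of levels. In untreated cells Ifitm3 was highest at 885 ± 23.7 RPKM (SD, n = 3), far above Bst2 at 185 ± 4.60 and Ifi27l2a at 169.8 ± 27.9, which did not differ beyond their spread. Trim25 came next at 63.7 ± 0.819. At the other end were Mx2 at 1.69 ± 0.691, Herc6 at 1.08 ± 0.392 and Ifi44 at 0.541 ± 0.312 RPKM, neighbours whose ranges of mean and SD overlapped. In the difference, Ifitm3 held 1593 ± 120.4 RPKM, and Ifi27l2a and Bst2, at 552 ± 38.6 and 549.9 ± 26.1, again could not be ordered beyond their spread. In the remainder the values were 1420.2 ± 263 for Ifitm3, 606 ± 133 for Bst2 and 579.8 ± 119 for Ifi27l2a. Isg15 rose from 22.5 ± 6.98 RPKM in untreated cells to 78.8 ± 18.1 in the difference, with 88.6 ± 31.6 in the remainder, and Zbp1 from 6.32 ± 1.32 to 36.2 ± 9.13 and 38.4 ± 8.12.

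Interferon transcripts themselves were near the limit of detection. Of 20 genes of type I and type III interferons, 0 passed the filter and 18 had 0 counts in all 12 libraries. Ifnb1, which encodes interferon beta, had 0, 1 and 0 counts in untreated cells, 0, 0 and 0 with IL-4, 3, 2 and 0 in the difference and 2, 1 and 0 in the remainder. The other gene with counts, Ifnz, had 2 at most. A count of 0 allows up to 3, so no change in interferon transcripts was detectable at this depth.

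The genes that carry the signal from the receptor rose in part. Of 10 tested, 5 were called higher in the difference, against 7 in the remainder, where 11.8% and 13.6% of all genes were. Ifngr1, a chain of the interferon gamma receptor, was lower in both, at -0.65 ± 0.10 (SE, adjusted p = 1.9e-04) and -0.87 ± 0.10 (SE, adjusted p = 1.2e-05). Stat2 measured 109, 92.2 and 99.7 CPM untreated, 292, 219 and 215 in the difference and 309, 256 and 262 in the remainder. Irf9, a DNA-binding subunit, measured 90.5, 99.2 and 91.9 CPM untreated, 127, 131 and 127 in the difference and 147, 129.6 and 139 in the remainder. Both were above the untreated range in every library of both parts. Stat2 changed by 1.27 ± 0.12 (SE, adjusted p = 2.5e-06) in the difference and 1.46 ± 0.12 (SE, adjusted p = 5.3e-07) in the remainder, and Irf9 by 0.45 ± 0.07 (SE, adjusted p = 4.3e-04) and 0.56 ± 0.07 (SE, adjusted p = 5.0e-05). Jak2, a kinase of the interferon gamma receptor, rose by 1.67 ± 0.23 (SE, adjusted p = 1.2e-04) and 1.70 ± 0.23 (SE, adjusted p = 8.5e-05). The receptor chain Ifnar2 was at 0.00 ± 0.08 (SE, adjusted p = 0.998) and 0.05 ± 0.08 (SE, adjusted p = 0.700), and Ifnar1 at 0.12 ± 0.07 (SE, adjusted p = 0.243) and 0.23 ± 0.07 (SE, adjusted p = 0.0286). With IL-4 the lowest adjusted p among the 10 was 0.476.

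**Figure D5:**
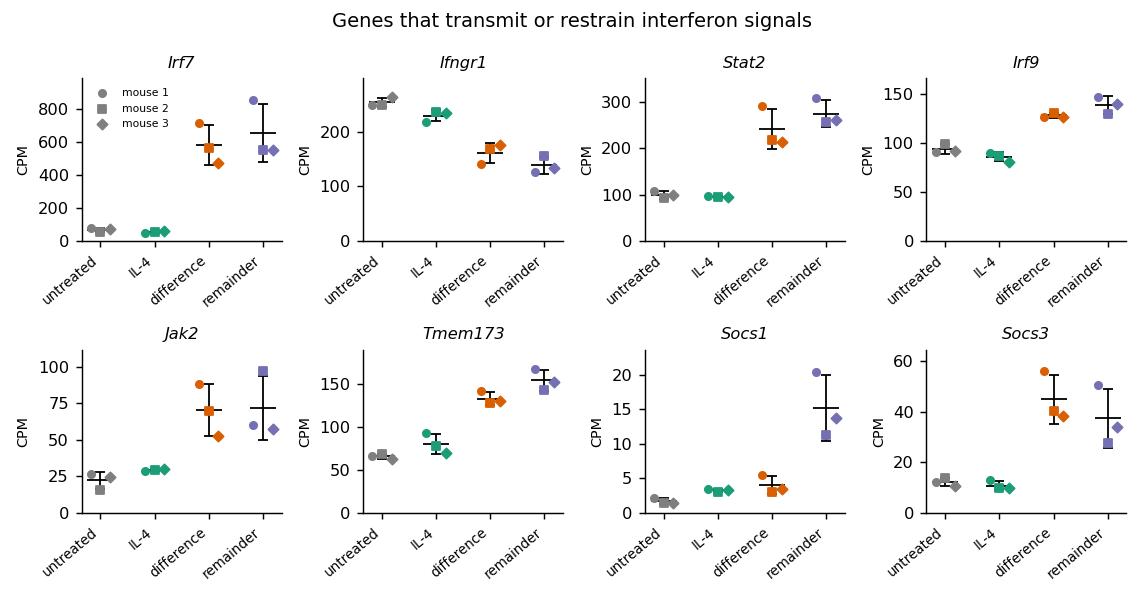
CPM (y axis, from 0) of 8 genes that transmit or restrain interferon signals in the untreated, IL-4, difference and remainder libraries, with 1 symbol per mouse and black bars for the mean ± SD of 3 mice. Irf7 rises from 76.5, 54.0 and 71.4 CPM to 714, 564 and 474 in the difference, the transducers Stat2 and Irf9 rise by smaller steps, Ifngr1 is lower in both parts, and Socs1 is highest in the remainder.

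Upstream of interferon, Irf7 stood out among 16 sensors and adaptors, of which 4 were called higher and 2 lower in each part. Of all genes tested, 11.8% were called higher and 11.4% lower in the difference, and 13.6% and 11.7% in the remainder. Irf7 is the factor that drives the transcription of interferon alpha genes. It measured 76.5, 54.0 and 71.4 CPM untreated, 51.1, 56.7 and 57.8 with IL-4, 714, 564 and 474 in the difference and 855, 551 and 549 in the remainder. Its log2 fold changes, 3.12 ± 0.20 (SE, adjusted p = 9.1e-08) and 3.27 ± 0.20 (SE, adjusted p = 3.9e-08), were above those of all 42 members. Tmem173, which encodes the DNA-sensing adaptor STING, rose by 1.01 ± 0.10 (SE, adjusted p = 5.7e-06) and 1.23 ± 0.10 (SE, adjusted p = 7.6e-07). With IL-4 alone Tlr9 was the only call of these 16, where 3.40% of all genes were called. Tlr9 was at -0.57 ± 0.09 (SE, adjusted p = 0.00230), and its call was lost without mouse 3, at -0.49 (adjusted p = 0.157).

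Of 10 negative regulators, 9 were tested, and 2 were called higher and 0 lower in the difference, against 3 and 3 in the remainder. The 22.2% called in the difference was near the share of all genes tested, 23.2%. In the remainder 66.7% were called, against 25.3% of all genes. Socs1, which inhibits JAK kinases at the interferon receptors, measured 2.15, 1.48 and 1.44 CPM untreated, 3.42, 3.07 and 3.25 with IL-4, 5.49, 2.99 and 3.49 in the difference and 20.5, 11.3 and 13.7 in the remainder. It was higher in the remainder than in the difference in every library, while the 42 members themselves gave 0 calls between the parts. The log2 fold changes of Socs1 were 1.23 ± 0.29 (SE, adjusted p = 0.00728) in the difference and 3.15 ± 0.27 (SE, adjusted p = 1.3e-06) in the remainder, and the first was lost without mouse 3, at 1.22 (adjusted p = 0.101), or without the difference library of mouse 1, at 0.91 (adjusted p = 0.0536). Socs3, an inhibitor of cytokine signaling through STAT3, rose by 1.88 ± 0.21 (SE, adjusted p = 2.0e-05) and 1.61 ± 0.21 (SE, adjusted p = 6.7e-05).

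A list of 55 other interferon-stimulated genes also rose in most cases. Of 51 tested, 37 were called higher and 1 lower in the difference and 33 higher and 1 lower in the remainder, with median log2 fold changes of 0.98 and 0.80. Over all genes tested, 11.8% were called higher in the difference and 13.6% in the remainder. Among those past 2-fold in both parts, the Schlafen gene Slfn1 changed by 2.78 ± 0.28 (SE, adjusted p = 6.9e-06) and 2.55 ± 0.29 (SE, adjusted p = 1.4e-05), and Ms4a4c by 2.69 ± 0.31 (SE, adjusted p = 2.1e-05) and 2.70 ± 0.31 (SE, adjusted p = 1.7e-05). The abundant genes Ly6e and Lgals3bp changed by 1.65 ± 0.11 and 1.80 ± 0.11 and by 1.82 ± 0.11 and 2.01 ± 0.11. The PHD finger genes Phf11a, Phf11b and Phf11d lay at 1.76, 1.54 and 1.33 in the difference and 2.01, 1.69 and 1.23 in the remainder. Others past 2-fold in both were Oas1g, Ifi211, Ifi30, Trim30c, Slfn5, Lgals9 and Cd274, at 1.01, 1.50, 1.06, 1.97, 1.50, 1.21 and 1.60 in the difference and 1.43, 1.20, 1.39, 1.58, 1.16, 1.34 and 2.25 in the remainder.

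Calls of 4 other genes of that list were lost when a mouse or a library was left out. Ifi213 changed by 1.82 and 1.63, Slfn4 by 1.69 and 1.48, Apol9b by 2.50 and 2.89 and Ifi205 by 2.88 and 2.15. Without the difference library of mouse 1, the values in the difference were 1.08 (adjusted p = 0.0727) for Ifi213, 1.24 (adjusted p = 0.0837) for Slfn4 and 1.69 (adjusted p = 0.0995) for Apol9b. In the remainder, leaving out mouse 2 gave 1.15 (adjusted p = 0.0830) for Ifi213, 1.20 (adjusted p = 0.0732) for Slfn4 and 1.49 (adjusted p = 0.236) for Ifi205, and leaving out mouse 3 gave 2.54 (adjusted p = 0.0800) for Apol9b. The Ifi205 call in the remainder was also lost without mouse 3, with total counts alone, and when each IL-4 library was left out in turn.

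With IL-4, 1 of these 51 genes was called higher and 3 lower, where 3.40% of all genes were called and 1.09% were called lower. Cd274, which encodes the checkpoint ligand PD-L1, rose by 0.59 ± 0.13 (SE, adjusted p = 0.0181), with 31.4, 27.8 and 30.1 CPM untreated and 45.3, 43.4 and 46.0 with IL-4. Ifit1bl1, a close relative of Ifit1, fell, at -2.03 ± 0.37 (SE, adjusted p = 0.00557). The chemokine gene Cxcl10 was lower with IL-4, at -1.16 ± 0.28 (SE, adjusted p = 0.0338), and in the remainder, at -1.12 ± 0.28 (SE, adjusted p = 0.00795), unlike most of the list. Epsti1 was lower at -0.32 ± 0.07 (SE, adjusted p = 0.0281), and with the mouse as a block it was at -0.32 (adjusted p = 0.0621). Every one of these 4 calls was lost without mouse 3, at 0.57 (adjusted p = 0.218) for Cd274, -2.02 (adjusted p = 0.138) for Ifit1bl1, -1.20 (adjusted p = 0.318) for Cxcl10 and -0.37 (adjusted p = 0.287) for Epsti1. Without mouse 3 the calls with IL-4 over all genes fell from 422 to 77. Of 23 alternatives, Epsti1 was called in 11, Cd274 in 15, Cxcl10 in 16 and Ifit1bl1 in 22. The Cd274 and Cxcl10 calls were also lost when each IL-4 library was left out in turn.

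The label of the cells was checked against markers. The summed level of 8 macrophage markers, led by Lyz2, was 51224 to 58374 CPM in untreated cells, 43979 to 52227 with IL-4, 58397 to 68614 in the difference and 57461 to 57903 in the remainder. Of these 8, 4 were called higher in the difference and 2 in the remainder. Over all genes tested, 11.8% and 13.6% were called higher, and 23.2% and 25.3% were called in either direction. With IL-4 1 was called lower, Cd14 at -0.51 ± 0.08 (SE, adjusted p = 0.00167), and between the parts 2 were lower in the remainder, Cd14 at -0.57 ± 0.08 (SE, adjusted p = 5.8e-04) and Fcgr1 at -0.47 ± 0.10 (SE, adjusted p = 0.0137). The summed level of 5 markers of plasmacytoid dendritic cells, which make much interferon, was 0.322 to 0.878 CPM untreated, 0.361 to 0.895 with IL-4, 0.727 to 2.12 in the difference and 1.45 to 1.99 in the remainder. The defining marker Siglech had 1 to 6 counts in a library and Klk1 had 1 at most, and Cox6a2 and Ccr9 held most of the counts, with 3, 0 and 4 counts of Cox6a2 untreated, 23, 11 and 3 in the difference and 18, 15 and 16 in the remainder. Cox6a2 was the 1 marker of these 5 that could be tested, and it was called higher in both parts along with the members, at 2.39 ± 0.72 (SE, adjusted p = 0.0266) and 2.82 ± 0.68 (SE, adjusted p = 0.00734). The part of such cells in the members' levels was not tested. Markers of T and NK cells, B cells, erythroid cells and mast cells summed to at most 0.550 CPM in any library.

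Of 3 neutrophil markers tested, the difference had 1 called lower and the remainder had 2, where 11.4% and 11.7% of all genes were called lower. The summed level of 6 neutrophil markers was 14.5 to 19.2 CPM untreated, 19.4 to 22.9 with IL-4, 9.59 to 14.5 in the difference and 8.05 to 11.1 in the remainder, with Ngp at -0.55 ± 0.17 (SE, adjusted p = 0.0298) and -0.90 ± 0.17 (SE, adjusted p = 0.00133) in the difference and the remainder, Camp at -0.41 ± 0.28 (SE, adjusted p = 0.313) and -0.88 ± 0.29 (SE, adjusted p = 0.0387), Mpo at 0.63 ± 0.63 (SE, adjusted p = 0.515) and 0.71 ± 0.62 (SE, adjusted p = 0.437), and Ly6g at 3 counts at most. The 4 markers of conventional dendritic cells summed to 1.32 to 2.10 CPM untreated, 1.86 to 1.98 with IL-4, 0.582 to 1.14 in the difference and 1.18 to 2.03 in the remainder. Among these, Cd209a had 24, 20 and 11 counts untreated, 0, 0 and 0 in the difference and 3, 0 and 0 in the remainder, and was called lower in both parts. Zbtb46, the other of these that could be tested, lay the other way, at 0.34 ± 0.47 (SE, adjusted p = 0.646) in the difference and 1.56 ± 0.41 (SE, adjusted p = 0.0113) in the remainder. Stromal markers summed to 6.77 to 18.4, 8.21 to 28.1, 4.14 to 9.77 and 4.61 to 15.0 CPM in the same order of groups, without a call. The part of these cells in the members' levels was not tested.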

How the data were processed

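RNA-seq counts were analysed for BMDMs of 3 mice in 4 groups, 12 samples in all, with groups taken from the labels. The deposited table holds whole-number counts for each gene. Per the labels and the paper's methods, the authors used FastQC 0.11.7, Trimmomatic 0.36, STAR, SAMtools 1.9, HTSeq 0.11.1 and DESeq2 1.24.0 with mm10. The methods of the paper give UCSC as the source of gene models, but the deposited identifiers are from Ensembl, and whether counting used strand is not given in the sources used here. Counts were not normalized by the authors, 0 rows named no gene and 0 columns were left unused. The Wnt3a-containing columns were solved into the parts described above, which gave 0 values below 0.

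Symbols were matched to 48058 of 48526 identifiers (99.0%). The members and lists were chosen with earlier results of these data known, and all lists describe rather than support. edgeR 4.0.16 in R 4.3.3 fitted all 12 libraries (untreated, IL-4, difference and remainder, 3 each) with TMM scaling, group as the only term and shared spread. CPM use the TMM library sizes. P-values rest on the spread within groups, pooled over the 12 libraries and moderated across genes. The same 3 mice gave all 4 groups, and the mouse was not a term in this fit. Python 3.11.15 and pandas 2.3.3 built the tables, and the fit was tested on simulated data. Positions, exon lengths and shared 50-base stretches came from GENCODE on GRCm38, and promoters from RefSeq.

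Values per library were given by rule for the 4 highest and 4 lowest called members of each comparison, and pathway genes were named where called in both parts with log2 fold changes of 1 or more in size. Every other gene given with values per library (among them Ifit3, Rsad2, Samd9l, Rnf213, Eif2ak2, Rtp4 and Irf9) was chosen after its values were seen. Alternatives were DESeq2 1.42.0, its size factors, total counts alone, all genes with at least 1 count, at least 1 CPM in at least 3 libraries, only the groups compared, the deposited columns, the mouse as replicate block, each mouse or each of the 12 libraries left out, an adjusted p under 0.01, and a log2 fold change of 1 or more in size.

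The labels pair the samples, since each mouse gave 1 sample to every group. Deviations from the group means correlated between -0.42 and 0.45 over genes in the 18 same-mouse pairs, and 6 were over 0.1. For the members and the pathway genes followed through the alternatives, the blocked value is printed where it changes a call.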

Additional observations from a re-analysis of the deposited data

Results flagged for a closer look

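The change against untreated cells differed between the parts for 4 genes of the interferon pathway lists, by the direct test of the remainder against the difference with edgeR. These were 0 of 10 receptors and signal transducers tested and 1 of 16 sensors and adaptors. The others were 1 of 9 negative regulators and 2 of 51 other interferon-stimulated genes. Over all genes tested 5.25% were called, so the 4 calls are near that share and are no trait of these lists. Socs1 was higher in the remainder, by 1.92 ± 0.25 (SE, adjusted p = 3.6e-04), in 3 of 3 mice. Ccl12, a chemokine gene, was higher in the remainder by 2.42 ± 0.45 (SE, adjusted p = 0.00553), with 1.20, 0.122 and 0.582 CPM in the difference and 4.41, 2.40 and 3.68 in the remainder. Cd274 was higher in the remainder by 0.66 ± 0.12 (SE, adjusted p = 0.00518), with 106, 85.2 and 78.4 CPM in the difference and 137, 167 and 122 in the remainder. Tlr7, the endosomal sensor of single-stranded RNA, was lower in the remainder at -0.84 ± 0.18 (SE, adjusted p = 0.0132), with 296, 248 and 260.0 CPM in the difference and 119, 189 and 141 in the remainder. Without mouse 3 these calls were lost, at 1.91 (adjusted p = 0.0618) for Socs1, 2.33 (adjusted p = 0.234) for Ccl12, 0.67 (adjusted p = 0.0998) for Cd274 and -0.82 (adjusted p = 0.277) for Tlr7. The calls over all genes fell as well, from 652 with all samples to 97 without mouse 3, so these losses are not particular to the 4 genes. The Tlr7 call was also lost without mouse 1, at -0.62 (adjusted p = 0.156), without the difference library of mouse 1, at -0.76 (adjusted p = 0.0556), and without the remainder library of mouse 1 or mouse 3, at -0.70 (adjusted p = 0.0668) and -0.80 (adjusted p = 0.0656).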

How the results depend on the processing

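Members called higher in the difference numbered 32 to 40 and in the remainder 29 to 40 when a mouse or a library was left out, lowest without mouse 3 in both. In either direction, these fits called 9.97% to 25.8% of all genes in the difference and 11.2% to 31.2% in the remainder, also lowest without mouse 3. Of the called members, 32 of 37 and 29 of 35 were called in every alternative that scaled, filtered, fitted or left out samples differently. In the difference, the exceptions were Ifi204, Herc6, Trim25, Cmpk2 and Ifi35, and in the remainder Ifit3, Oas2, Ifih1, Mx1, Cmpk2 and Trim30a. The losses printed above for these genes are examples. With total counts alone, Herc6 was lost in the difference and Ifit3, Ifih1, Mx1 and Cmpk2 in the remainder. A minimum absolute log2 fold change of 1 left 18 members in the remainder. Members called with IL-4 numbered 0 to 5 when samples were left out, and those called between the parts 0 to 3. Over all genes these settings called 0.629% to 4.30% with IL-4 and 0.793% to 9.75% between the parts, both lowest without mouse 3. DESeq2 called 4 members with IL-4 and 1 between the parts. With all genes that had at least 1 count, 11 members were called lower with IL-4 and 10 were called between the parts, where 1.40% of the 23413 genes then tested were called lower with IL-4 and 6.21% were called between the parts, and the cause was not tested. With the replicate block, 1 member was called with IL-4, 38 were called in the difference and 37 in the remainder. The block changed the calls of Rtp4, Oas2, Ifit2 and Mx2 among the members and of Epsti1, as given above. It changed no other call among the members and the pathway genes followed through the alternatives. The cell type markers, and Ifnar1 and Cxcl10 in the remainder, were not followed in this way. On the deposited columns, 38 members were called for the Wnt3a column and 39 for the Wnt3a+IL4 column, where 30.4% and 29.3% of all genes were. The remainder-against-difference calls of Socs1, Ccl12, Cd274 and Tlr7 were lost on these columns, since they share reads. The value of Samd9l in the difference ranged from -0.45 without the difference library of mouse 1 upward and turned to 0.06 without mouse 3, 0.24 without the untreated library of mouse 1, 0.03 without the difference library of mouse 2 and 0.01 without that of mouse 3, none of them called. Depth limits what can be said of interferon transcripts, Ifi44 and the low genes of the other lists, and 3 mice a group limit changes near the size of the spread, such as those with IL-4.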
